A study of Mus musculus with 12 samples.

Results

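The apical and the middle turn of the cochlea were compared in mice homozygous for Gjb2 35delG, as 4 libraries of the 12 in the series, 2 from each turn. The series holds RNA-seq of cochleae at postnatal day 14 from wild-type mice and from mice with the deletion on both alleles, cut into apical, middle and basal pieces of equal size, with 2 biological repeats of each piece. Both groups compared carried the same genotype, Gjb2 35delG/35delG (labelled KO), on a background close to C57BL/6J. The homozygous mice were made by tetraploid complementation from embryonic stem cells that carried this genotype, were born by cesarean and were nursed by ICR females. Per the study's methods, the stem cell lines were male, and the wild-type controls were age-matched males bought from a supplier. In comparisons with wild-type, genotype, origin and rearing cannot be told apart. The number of mice and of stem cell lines behind a library is not given in the sources used here. The study calls the repeats biological, but they may share animals or a line, so the p-values measure the spread between these samples only. Of the 37432 genes in the deposited table, 14537 reached 1 FPKM in 2 or more of the 4 libraries and were tested. FPKM, an expression value normalised for transcript length and library size, were divided by 1 factor per library, and all differences are middle minus apical on the scale log2(scaled FPKM + 1), so that 1 is a 2-fold change of a well expressed gene and the change of a low gene is understated.

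The cochlea is a coiled tube in which position encodes sound frequency, from high at the base to low at the apex, and structures along it are graded with position, among them the basilar and tectorial membranes. Gjb2 and Gjb6 encode connexin 26 and connexin 30, which form the gap junctions that couple supporting cells, fibrocytes and strial cells and carry potassium ions and small messengers between them. The 35delG allele lacks 1 base of a run of G near the start of the Gjb2 coding sequence, which shifts the reading frame. The 2 sequences are shown because the mice of all 4 libraries carry the shorter one on both alleles, by the study's design. The first is from the GENCODE transcript of Gjb2 and the second from the study's repair primer, with the run of G in capitals.
reference Gjb2: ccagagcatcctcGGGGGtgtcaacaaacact
35delG allele: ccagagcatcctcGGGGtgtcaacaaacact
The run holds 5 G in the reference and 4 in the primer. FPKM do not show the allele, and the genotype was taken from the labels.

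The libraries of the 2 turns lay as close to each other as the repeats of 1 turn did. The Euclidean distance over the genes tested was 50.7 between the apical repeats and 70.5 between the middle repeats. Between turns it was 43.8 from apical 1 to middle 2, 50.0 from apical 2 to middle 2, 63.6 from apical 2 to middle 1 and 80.5 from apical 1 to middle 1. The mean between turns (59.5) was 0.982 times the mean between repeats (60.6), and the nearest library of each apical library was middle 2, of the other turn. In wild-type cochleae the same ratio was 1.67, with a mean distance of 78.0 between the turns and 46.7 between repeats. An exact permutation of 2 against 2 libraries cannot reach a p of 0.05, so these ratios are descriptions. The difference between the genotypes was not tested on them. The nearest library of wild-type basal 1 was homozygous middle 2 (70.5), and that of wild-type basal 2 was homozygous middle 1 (65.1). Whether pieces of the same name match between the genotypes was not tested.

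**Figure D1:**
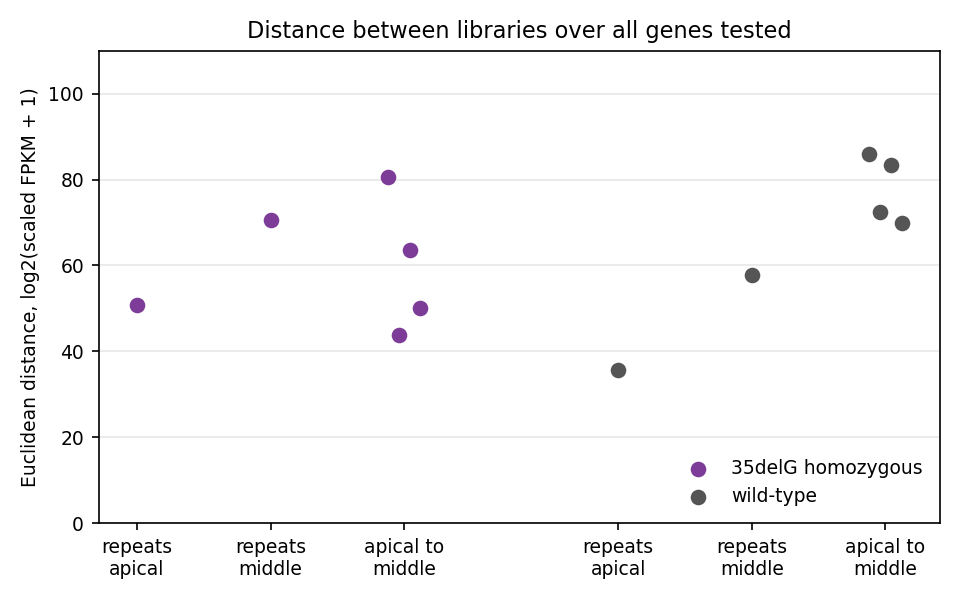
Euclidean distance between libraries on log2(scaled FPKM + 1), each point 1 pair of libraries, for repeats of the apical turn, repeats of the middle turn and pairs of different turns. In the 35delG homozygous cochlea the distances between turns (43.8 to 80.5) spanned those between repeats (50.7 and 70.5), whereas the wild-type distances between turns lay above both wild-type repeat distances.

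One library stood apart. Middle 1 held 469 genes more than 2-fold above each of the other 3 libraries, against 8 for middle 2, 10 for apical 1 and 9 for apical 2. These included bone, marrow and blood genes. Col1a1, the main collagen of bone, read 19.5 and 24.2 in the apical libraries and 756 and 31.9 in the middle libraries. S100a8, a neutrophil protein, read 37.1 and 147 in the apical libraries and 2109 and 120.3 in the middle libraries, and Slc4a1, the anion exchanger of red cells, read 0.52 and 2.43 in the apical libraries and 41.5 and 3.05 in the middle libraries. All 12 neutrophil, all 7 erythroid and all 4 B cell genes tested were more than 2-fold above each other library in middle 1, and 3 of 4 osteoclast genes and 3 of 11 osteoblast genes were as well. Depth is unknown, since the files hold FPKM only. The share of FPKM from mitochondrial genes was 7.32% and 9.81% in the apical libraries and 10.7% and 7.64% in the middle libraries. Cochlear markers were present in all 4 libraries: the hair cell gene Ocm read at least 158, the fibrocyte gene Coch at least 3052 and the strial gene Kcne1 at least 35.9 scaled FPKM.

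No gene passed the thresholds for a change between the turns. With limma, 0 of 14537 genes (0%) were called at an adjusted p under 0.01 and over 2-fold, and 0 had an adjusted p under 0.05, with a smallest adjusted p of 0.0733. An unadjusted p under 0.05 was reached by 398 genes, 221 higher in the middle turn (1.52%) and 177 higher in the apical turn (1.22%). That count was 173 without middle 1, 987 without middle 2 and 218 without apical 1. The middle 95% of the fitted differences ran from -0.56 to 0.91, with a median of -0.01. The 95% interval of the difference lay inside 2-fold in either direction for 10799 genes (74.3%), and for 7331 of the 9256 genes whose mean reached 5 scaled FPKM (79.2%). For the other genes, a difference of over 2-fold was not excluded at this spread.

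**Figure D2:**
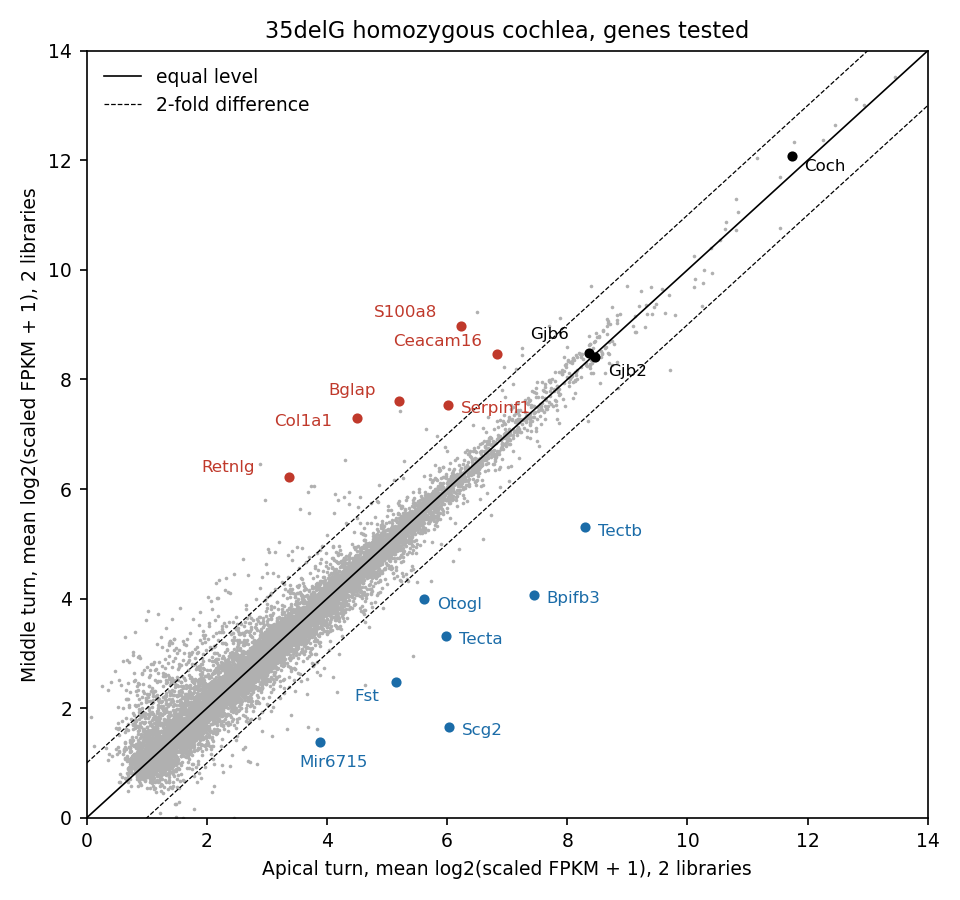
Mean level of each of 14537 genes in the apical (x axis) and middle (y axis) turn of the 35delG homozygous cochlea, log2(scaled FPKM + 1), 2 libraries each, with lines of equal level and of 2-fold difference. Of these genes, 374 lay beyond 2-fold, among them Scg2, Tectb, Tecta and Fst toward the apical turn, and Col1a1, Bglap, S100a8 and Retnlg, high in middle 1 alone, toward the middle turn.

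Beyond 2-fold lay 374 genes (2.57%), 304 higher in the middle turn and 70 higher in the apical turn. The libraries of the 2 turns did not overlap for 173 of the former and 69 of the latter. Over all genes tested, the middle libraries were both above the apical ones for 1785 genes (12.3%) and both below them for 2098 (14.4%). Without middle 1, 37 of the 173 genes and 53 of the 69 were still over 2-fold, and the counts over all genes turned to 74 higher in the middle and 195 higher in the apical turn. Of the 173 genes, 120 were over 2-fold higher in middle 1 than in middle 2. On the apical side, middle 1 and middle 2 lay within 2-fold of each other for 65 of the 69 genes.

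The genes of the largest apical excess included structural proteins of the tectorial membrane, the acellular gel that lies over the hair bundles. Tecta, which encodes alpha-tectorin (chr9:42329622-42399929, reverse strand, in mm10 as all gene positions here), read 81.1 and 47.6 in the apical libraries and 6.76 and 11.8 in the middle libraries, a difference of -2.66 ± 0.52 (SE, n = 2 a turn, unadjusted p = 6.50e-04, limma adjusted p = 0.845). Tectb, which encodes beta-tectorin (chr19:55180736-55196313, forward strand), read 367 and 269 in the apical libraries and 29.6 and 49.7 in the middle libraries, a difference of -2.997 ± 0.88 (adjusted p = 0.9998). Apical and middle libraries did not overlap for these 2 genes, and the apical turn was higher by 6.34-fold and 7.98-fold on the fitted scale. Otogl, which encodes otogelin-like, read 62.6 and 36.9 in the apical libraries and 12.8 and 17.4 in the middle libraries, a difference of -1.62 ± 0.32. Its relative Otog overlapped between the turns, at 63.7 and 33.03 in the apical libraries and 23.3 and 39.8 in the middle libraries. Ceacam16, a secreted protein of the same matrix that binds alpha-tectorin, ran the other way, at 127 and 100.5 in the apical libraries and 281 and 442 in the middle libraries (1.63 ± 0.88, unadjusted p = 0.0963). Otoa, which encodes otoancorin and attaches the membrane to its supporting cells, read 65.7 and 17.2 in the apical libraries and 60.1 and 83.8 in the middle libraries and overlapped. Of the 6 genes of this list, 0 were called, 3 did not overlap and were higher in the apical turn (14.4% of all genes were) and 1 in the middle turn (12.3% of all genes), and the median difference was -1.10 against -0.01 over all genes tested. The median was -0.81 without middle 1 and -1.40 without middle 2. Wild-type Tectb was also lower in the middle turn, at 62.9 and 84.4 in apical and 0.46 and 0.169 in middle libraries, and wild-type Tecta read 0.783 and 0.676 and 0.141 and 0.129. Within each turn of the homozygous cochlea all 6 genes were higher in apical 1 than in apical 2 and higher in middle 2 than in middle 1, a pattern that 4798 of the 14537 genes had.

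Mir6715, a microRNA gene at chr19:55192678-55192734, forward strand, lies inside Tectb on the same strand. In GENCODE it falls in an intron of 2 coding transcripts of Tectb and overlaps an exon of 2 others. It had the smallest p of all genes tested, at 17.2 and 10.96 in the apical libraries and 1.48 and 1.74 in the middle libraries (-2.50 ± 0.27, adjusted p = 0.0733). Its gene is 57 bases long, shorter than a read of these libraries, so its FPKM and those of Tectb may share fragments, and the mature microRNAs were not measured. Their RefSeq sequences (GRCm38.p6) are shown to identify the locus, with the seed, bases 2 to 8, in capitals.
mmu-miR-6715-5p: aCAGGCACcacagguuugagcau
mmu-miR-6715-3p: cCAAACCAggcgugccugugg
The 2 arms have different seeds.

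Scg2 had the largest difference of all genes with non-overlapping turns. It encodes secretogranin II, a protein of dense-core secretory vesicles, and lies at chr1:79434669-79440120, reverse strand. It read 119 and 35.05 in the apical libraries and 2.75 and 1.67 in the middle libraries, a difference of -4.38 ± 0.51 (unadjusted p = 1.51e-05, adjusted p = 0.0733), or 20.8-fold on the fitted scale. The apical repeats themselves differed by over 2-fold, and both lay far above the middle ones. In the wild-type cochlea Scg2 read 0.586 and 0.837 in the apical and 0.828 and 0.608 in the middle libraries. The difference between the genotypes in the turn contrast was -4.38 ± 0.72 (limma, unadjusted p = 2.08e-04, adjusted p = 0.178) and was not called. Nefl, a neurofilament gene of neurons, overlapped between the turns, at 24.6 and 61.9 in the apical libraries and 56.8 and 6.37 in the middle libraries.

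The promoter of Scg2 is shown because Scg2 led the apical side. RefSeq gives it as chr1:79439977-79440276 (GRCm38.p6, reverse strand), 250 bases before to 50 after the start. Capitals mark the cyclic AMP response element TGACGTCA, a palindrome searched on both strands and found in 1.79% of 32851 promoters of this length.
Scg2 promoter: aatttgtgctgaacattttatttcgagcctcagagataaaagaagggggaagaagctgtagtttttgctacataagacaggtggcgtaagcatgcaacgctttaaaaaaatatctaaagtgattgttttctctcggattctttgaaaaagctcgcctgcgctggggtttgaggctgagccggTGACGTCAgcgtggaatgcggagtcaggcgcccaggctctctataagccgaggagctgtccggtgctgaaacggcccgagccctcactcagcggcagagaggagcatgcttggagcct
The element begins 68 bases before the start. The same search found no TGACGTCA, TATAAA or GGGCGG in the promoter tables for Tectb, nor in either entry for Tecta. TATAAA was in 13.6% and GGGCGG in 35.7% of all promoters, on either strand. A match here is of letters only.

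**Figure D3:**
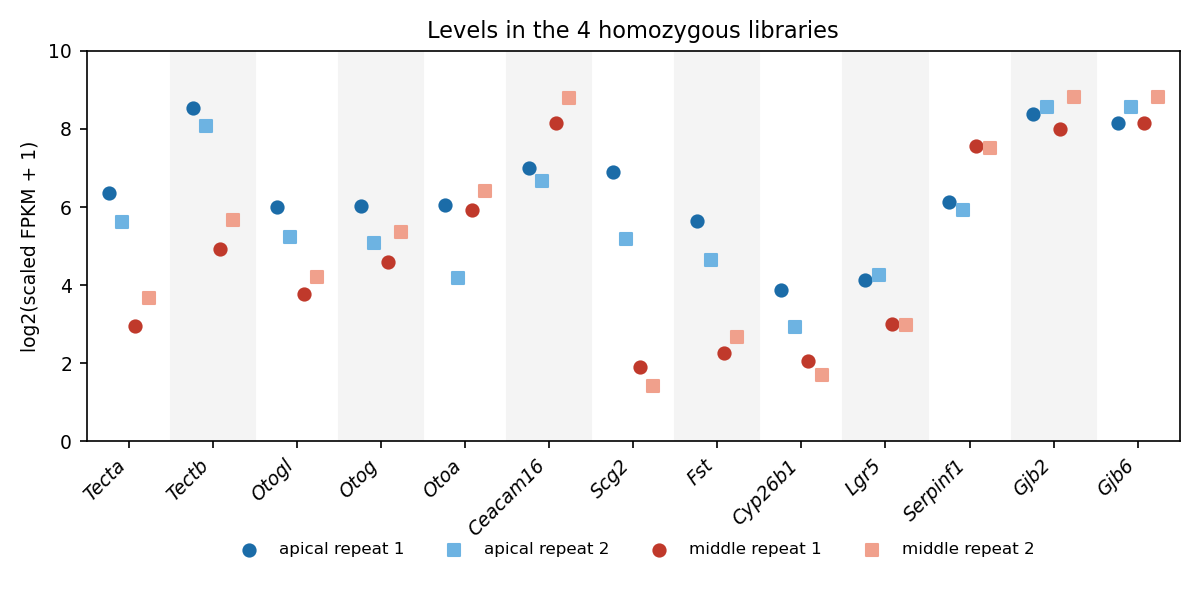
Level of 13 genes in each of the 4 libraries of the 35delG homozygous cochlea, log2(scaled FPKM + 1), circles for repeat 1 and squares for repeat 2, apical in blue and middle in red. Tecta, Tectb, Otogl, Scg2, Fst, Cyp26b1 and Lgr5 were higher in both apical libraries, Ceacam16 and Serpinf1 in both middle libraries, and Gjb2 and Gjb6 overlapped.

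Genes known or proposed to vary with position along the cochlea were next. Fst encodes follistatin, an extracellular antagonist of activins and BMPs that is enriched toward the apex of the developing cochlea. It read 49.3 and 24.2 in the apical libraries and 3.85 and 5.37 in the middle libraries (-2.68 ± 0.63, unadjusted p = 0.00217, adjusted p = 0.9998). Every apical value was above every middle value, and wild-type Fst read 7.41 and 8 in apical and 15.7 and 3.19 in middle libraries. Cyp26b1, an enzyme that degrades retinoic acid, read 13.6 and 6.59 in the apical libraries and 3.15 and 2.24 in the middle libraries (-1.52 ± 0.37, unadjusted p = 0.00303), and Rdh10, which serves the synthesis of retinoic acid, read 8.36 and 6.57 in the apical libraries and 4.32 and 5.49 in the middle libraries (-0.52 ± 0.17, unadjusted p = 0.0129). Of 12 genes of this list tested, 0 were called, 6 did not overlap and were higher in the apical turn, as 14.4% of all genes were, and 1, the potassium channel gene Kcnma1, was higher in the middle turn, as 12.3% were. In all, 4 of the 12, Fst, Cyp26b1, Rdh10 and Tectb, were higher in the apical turn at an unadjusted p under 0.05, against 1.22% of all genes. A2m overlapped, at 18.7 and 14.97 in the apical libraries and 16.4 and 46.6 in the middle libraries, as did Inhba and Bmp7. The median was -0.49.

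Among the rest of the 10 largest apical excesses, Bpifb3 read 205 and 145 in the apical libraries and 7.89 and 30.6 in the middle libraries, Ecel1, a membrane endopeptidase, read 54.97 and 32.5 in the apical libraries and 4.22 and 10.5 in the middle libraries, and the water channel gene Aqp5 read 29.7 and 19.2 in the apical libraries and 3.22 and 5.9 in the middle libraries. Cldn24, of the claudin family, read 12.8 and 13.8 in the apical libraries and 1.62 and 2.65 in the middle libraries and Apoa4, an apolipoprotein, read 16.5 and 8.49 in the apical libraries and 1.45 and 3.12 in the middle libraries. Their differences were -3.37, -2.48, -2.21, -2.21 and -2.02, with adjusted p from 0.821 to 0.9998. For all 5 the turns did not overlap, as the rule that chose the 10 genes required. That rule, which also left out predicted genes, covered Scg2, Mir6715, Tecta, Tectb and Fst as well. Chosen after its values were seen, Slc26a4, the anion exchanger pendrin of the outer sulcus and spindle cells, read 90.5 and 102 in the apical libraries and 37.8 and 28.9 in the middle libraries (-1.51 ± 1.07, unadjusted p = 0.193).

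All 15 Schwann cell and myelin genes were lower in both middle libraries than in both apical ones, where 14.4% of all genes were. None was called, and 6 of the 15 had an unadjusted p under 0.05, against 1.22% of all genes. Prx, periaxin of the Schwann cell, read 39.6 and 40.2 in the apical libraries and 17.8 and 20.1 in the middle libraries (-1.04 ± 0.26, unadjusted p = 0.00318, limma adjusted p = 0.9998), and Cldn19, a claudin of peripheral myelin, read 14.7 and 14.2 in the apical libraries and 5.27 and 6.06 in the middle libraries (-1.21 ± 0.30). Drp2, a partner of periaxin, read 27.8 and 22.4 in the apical libraries and 7.9 and 12.9 in the middle libraries. Egr2, the transcription factor that drives myelination, read 6.87 and 8.56 in the apical libraries and 4.11 and 5.1 in the middle libraries (-0.64 ± 0.21, unadjusted p = 0.0147). Sox10, which marks the whole glial lineage and also melanocytes, had the smallest difference of the list, at 77.3 and 75.5 in the apical libraries and 46.1 and 68.5 in the middle libraries (-0.44). The differences ran from -1.22 to -0.44 with a median of -1.04, and the median was -0.90 without middle 1 and -1.03 without middle 2. The summed level of the list was 1083 and 1614 in the apical libraries and 704 and 658 in the middle libraries. In bulk tissue, fewer cells of a type and less RNA per cell cannot be told apart.

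The axons that this myelin covers gave no such order. All 11 spiral ganglion neuron genes tested were higher in apical 2 than in apical 1 and higher in middle 1 than in middle 2, as were 4644 of the 14537 genes. Nefh read 33.4 and 52.4 in the apical libraries and 69.02 and 7.3 in the middle libraries, and Calb2, calretinin, read 96.5 and 219 in the apical libraries and 209 and 41.6 in the middle libraries. Snap25, the release protein of synaptic vesicles, read 39.5 and 87.8 in the apical libraries and 92.9 and 9.95 in the middle libraries. For these 3 genes middle 2 was the lowest library. The median of the neuronal list was -0.58, and -1.94 without middle 1 and 0.63 without middle 2, so the sign rested on 1 library. The 21 synaptic vesicle genes had a median of -0.31, which was -0.85 and 0.32 in the same order.

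**Figure D4:**
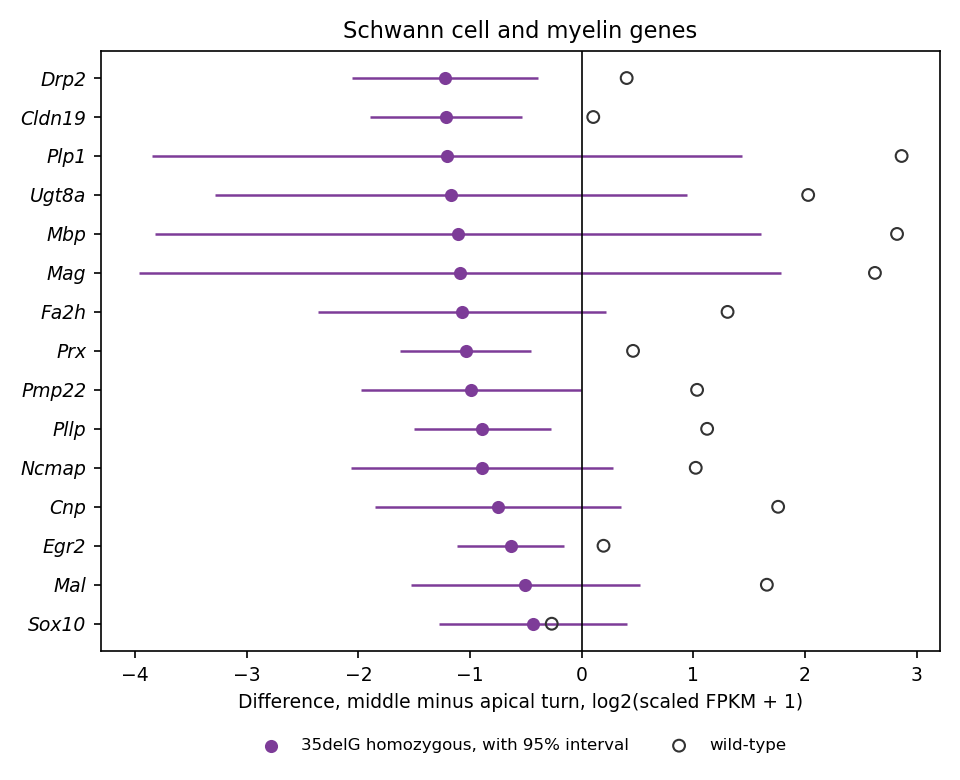
Difference between the middle and the apical turn for 15 Schwann cell and myelin genes on log2(scaled FPKM + 1), filled points with 95% intervals for the 35delG homozygous cochlea and open points for the wild-type cochlea. The homozygous points ran from -1.22 to -0.44, all below 0, and every wild-type point but that of Sox10 lay above 0.

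Between the wild-type pieces of the same names, 14 of the 15 myelin genes ran the other way, with a median of 1.12. The wild-type basal piece did not. Its mean log2(scaled FPKM + 1) over the list was 5.243 and 6.004, below 6.05 and 6.052 in the wild-type apical libraries. The summed level was 1432 and 5756 in those basal libraries, against 2149 and 2148 in the apical ones. Whether pieces of the same name match between the genotypes was not tested. Wild-type Prx read 73.3 and 69.5 in the apical and 87.4 and 111 in the middle libraries, so the turn contrast differed between the genotypes by -1.50 ± 0.36 (limma, unadjusted p = 0.00281, adjusted p = 0.417). With limma, 0 of 14537 genes (0%) were called for a turn contrast that differed between the genotypes, and 1182 (8.13%) had an unadjusted p under 0.05. That count was 482 without homozygous apical 2, 583 without wild-type apical 1 and 746 without wild-type apical 2. Of the myelin genes, 13 of 15 had such a p, and 9 of 15 without wild-type middle 1, with a smallest adjusted p of 0.244. That library carried genes of central glia: Mobp, of oligodendrocyte myelin, read 638 and 3.63 in the wild-type middle libraries, and Gfap, of astrocytes, 365 and 0.814. The wild-type median was 0.95 without it. The wild-type pieces also differed in stria: Kcne1, the potassium channel subunit of marginal cells, read 0 and 0.151 in apical and 0.43 and 0 in middle wild-type libraries, against 35.9 and 121 and 46.9 and 68.7 in the homozygous ones.

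The 2 main connexins of the cochlea overlapped between the turns. Gjb2 (chr14:57098600-57104702, reverse strand) read 330.5 and 375 in the apical libraries and 255 and 449 in the middle libraries, and its difference was -0.06 with a 95% interval of -1.12 to 1.01. Gjb6 (chr14:57123303-57133611, reverse strand) read 282 and 378 in the apical libraries and 284 and 446 in the middle libraries, a difference of 0.12 with an interval of -0.51 to 0.75, inside 2-fold. Middle 2 was the highest library for each. Gjc3, the connexin of Schwann cells, read 15.9 and 18.2 in the apical libraries and 8.67 and 12.1 in the middle libraries (-0.68), and Gjb1, the connexin of myelin, read 3.38 and 5.02 in the apical libraries and 2.24 and 1.8 in the middle libraries (-0.77). Gja1, connexin 43 of bone and fibroblasts, read 3.74 and 7.81 in the apical libraries and 46.3 and 8.81 in the middle libraries and was high in middle 1 only. Of 10 connexin and pannexin genes tested, 2 did not overlap and were higher in the middle turn and 2 in the apical turn, against 12.3% and 14.4% of all genes. The median was 0.03, and -0.04 without middle 2.

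Among genes of ATP and IP3 calcium signalling, the route of intercellular calcium waves in supporting cells, 13 of 18 had an interval inside 2-fold, against 74.3% of all genes. P2rx2, an ATP-gated channel, read 50.6 and 28.9 in the apical libraries and 40.4 and 58.1 in the middle libraries, Itpr1, an IP3 receptor, read 39.7 and 33.1 in the apical libraries and 30.4 and 40.2 in the middle libraries, and Atp2a2, the calcium pump of the endoplasmic reticulum, read 56.9 and 54.3 in the apical libraries and 52.5 and 44.5 in the middle libraries. None of the 18 had an unadjusted p under 0.05, and the median was 0.04, and -0.06 without middle 2. For 12 of 13 caspase and BCL2 family genes the interval was also inside 2-fold. Bax, a pore-forming death protein, read 24.8 and 32.6 in the apical libraries and 32.4 and 32.7 in the middle libraries. The median of that list was 0.22, and 0.07 without middle 1. Immediate early genes, which respond to handling and activity, overlapped for all 11 genes. Over all genes tested, 12.3% were higher in the middle turn without overlap and 14.4% in the apical turn. Fos read 7.03 and 21.1 in the apical libraries and 10.2 and 4.7 in the middle libraries. Of 9 heat shock genes, 7 were inside 2-fold, against 74.3% of all genes.

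Of the hair cell genes that the study names, Otof, Tmc1 and Myo15 overlapped between the turns. Otof, otoferlin of the inner hair cell synapse, read 23.6 and 13.9 in the apical libraries and 14.1 and 19.2 in the middle libraries (-0.13, 95% interval -1.08 to 0.82). Tmc1, a channel subunit of mechanotransduction, read 6.96 and 5.14 in the apical libraries and 3.59 and 6.51 in the middle libraries (-0.25, -1.44 to 0.94), and Myo15, a stereocilia myosin, read 7.42 and 4.04 in the apical libraries and 3.89 and 8.33 in the middle libraries (0.05, -1.18 to 1.28). All 3 intervals reached beyond 2-fold in at least 1 direction. Myo3b read 1.3 and 1.02 in the apical libraries and 0.424 and 0.557 in the middle libraries (-0.53), with the apical libraries higher, and Myo3a was below the filter. Of 26 hair bundle genes tested, 7 did not overlap and were higher in the apical turn (14.4% of all genes were) and 2 in the middle turn (12.3% of all genes). Espnl, an actin-binding protein, was the 1 gene with an unadjusted p under 0.05, at 3.93 and 2.67 in the apical libraries and 0.33 and 0.456 in the middle libraries (-1.61 ± 0.54, unadjusted p = 0.0157). The median was -0.15, which was 0.05 without middle 1 and -0.39 without middle 2, so its sign rested on 1 library. Of the 26, 22 were higher in apical 1 than apical 2 and higher in middle 2 than middle 1, the pattern of the tectorial genes.

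Outer hair cell genes were expressed at both turns. Slc26a5, prestin, the motor protein of these cells, read 18.4 and 12.5 in the apical libraries and 7.76 and 11.7 in the middle libraries (-0.62 ± 0.34). Ocm, oncomodulin, read 221 and 218 in the apical libraries and 158 and 304 in the middle libraries, and Chrna9, a subunit of the efferent acetylcholine receptor, read 4.31 and 3.19 in the apical libraries and 1.14 and 1.89 in the middle libraries (-0.93, unadjusted p = 0.0169). The median of the 7 genes was -0.02, which was 0.23 without middle 1 and -0.48 without middle 2, so its sign rested on 1 library. In the wild-type cochlea prestin read 26.98 and 27.4 in the apical and 0.0255 and 0.873 in the middle libraries, and Ocm read 359 and 352 and 0.344 and 20.1. The turn contrast of Slc26a5 differed between the genotypes by 3.73 ± 0.48 (unadjusted p = 3.13e-05, adjusted p = 0.178), which was not called.

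Among supporting cell genes, Lgr5, a Wnt-pathway receptor of Deiters and pillar cells, read 16.5 and 18.3 in the apical libraries and 6.97 and 6.91 in the middle libraries (-1.21 ± 0.62, unadjusted p = 0.0824), with no overlap. The homozygous basal libraries, which enter the SE of Lgr5, read 10.98 and 1.61. Sox2, a transcription factor of supporting cells, read 14.4 and 10.8 in the apical libraries and 6.1 and 9.4 in the middle libraries (-0.65 ± 0.26, unadjusted p = 0.0345). Fgfr3 and Jag1 overlapped. Of 11 supporting cell genes, 3 did not overlap and were higher in the apical turn and 1, Lfng, in the middle turn, against 14.4% and 12.3% of all genes. The median was -0.26, and -0.03 without middle 1 and -0.40 without middle 2.

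Most genes of the stria vascularis separated repeats, not turns. In all, 7 of 8 marginal cell genes were higher in repeat 2 than in repeat 1 of both turns, as were 2470 of the 14537 genes, and 6 of 8 intermediate cell and melanocyte genes were. Kcne1 read 35.9 and 121 in the apical libraries and 46.9 and 68.7 in the middle libraries, and Dct, a melanin enzyme of intermediate cells, read 193 and 584 in the apical libraries and 226 and 472 in the middle libraries. Kcnj10, a potassium channel needed for the endocochlear potential, read 39.4 and 55.1 in the apical libraries and 35.1 and 60.5 in the middle libraries. Kcnj13, the most changed gene of the intermediate cell list, separated the turns. It read 8.44 and 8.1 in the apical libraries and 3.67 and 5.04 in the middle libraries (-0.80). Of that list, 1 gene was higher without overlap in the apical turn and 1 in the middle turn. All 8 marginal cell genes overlapped, where 12.3% of all genes were higher in the middle turn without overlap and 14.4% in the apical turn. Their median was -0.17, which was 0.08 without middle 1, and the interval of Kcne1 was -4.63 to 4.20. In the spiral ligament Coch, cochlin, read 3801 and 3052 in the apical libraries and 3427 and 5453 in the middle libraries and Otos, otospiralin, read 1738 and 2978 in the apical libraries and 3499 and 5039 in the middle libraries.

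**Figure D5:**
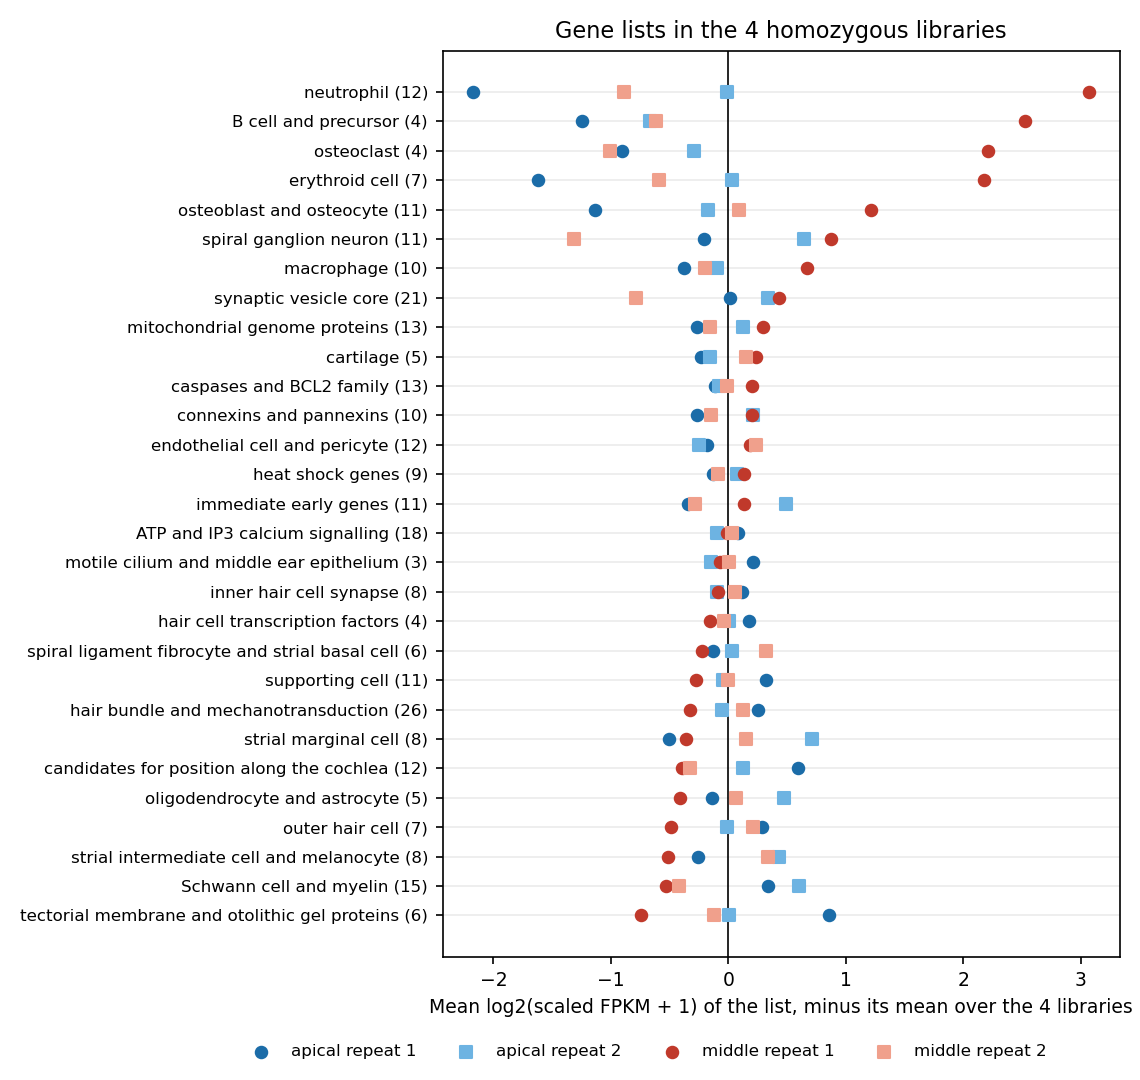
Mean log2(scaled FPKM + 1) of each gene list in each of the 4 libraries, minus the list's mean over the 4, with the number of genes tested in parentheses. Middle 1 stood apart for neutrophil, B cell, osteoclast and erythroid genes, both apical libraries lay above both middle ones for Schwann cell and myelin genes, and the strial lists separated repeat 2 from repeat 1.

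On the middle side, Serpinf1, which encodes pigment epithelium-derived factor, a secreted antiangiogenic protein, read 68.7 and 59.6 in the apical libraries and 187 and 181 in the middle libraries (1.51 ± 0.22, unadjusted p = 7.92e-05, adjusted p = 0.23). It was named after its values were seen, for the smallest p on the middle side. Vwf, the von Willebrand factor of endothelium, read 1.45 and 1.79 in the apical libraries and 3.74 and 5.05 in the middle libraries (1.03 ± 0.23, unadjusted p = 0.00171), and Pecam1, an endothelial adhesion protein, read 6.44 and 7.57 in the apical libraries and 14.8 and 11.7 in the middle libraries (0.82 ± 0.23, unadjusted p = 0.0067). Of 12 endothelial and pericyte genes, 6 did not overlap and were higher in the middle turn, as 12.3% of all genes were. Of these, Vwf, Pecam1, Tek and Kcnj8, or 4 of the 12, had an unadjusted p under 0.05, against 1.52% of all genes. The list's median was 0.32, and 0.44 without middle 1, but Emcn, the most abundant member, overlapped at 70.5 and 58.3 in the apical libraries and 65.4 and 61.7 in the middle libraries.

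Among genes whose turns did not overlap, predicted genes left out, the 10 largest excesses of the middle turn rested on single libraries. For 9 of them (Retnlg, Col1a1, Cstdc4, Ear2, Ear6, Slc4a1, Bglap, Bglap2 and Stfa2) middle 1 was the high library, and the marrow and bone lists moved with it. The neutrophil median was 2.21, and 0.31 without middle 1, and the erythroid median was 1.32, and 0.04 without it. The osteoclast median was 1.52, and -0.16 without it, and the osteoblast median was 1.03, and 0.54 without it. Of the osteoblast genes 6 of 11 did not overlap and were higher in the middle turn, as 12.3% of all genes were. Mepe, of osteocytes, read 5.75 and 44.4 in the apical libraries and 54.4 and 64.3 in the middle libraries (1.78 ± 0.75, unadjusted p = 0.043). The tenth, Kctd12, a subunit of GABA-B receptors, was listed at 0 in apical 1 and read 53.4 in apical 2 and 86.3 and 86.8 in the middle libraries, so no fold is given.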

How the data were processed

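Per the study's methods, the authors trimmed reads with fastp 0.20.0, aligned them to mm10 with STAR 2.7.3a, kept uniquely mapped reads, computed FPKM with StringTie 2.0 and deposited them as 1 table (versions from the submitters' processing notes). Library strandedness and annotation version are not given in the sources used here. The deposited FPKM were divided by median-of-ratios factors over 11552 genes (0.920 to 1.06), and log2(scaled FPKM + 1) was fitted with limma 3.58.1 in R 4.3.3, with 6 group means over 12 libraries, eBayes with trend and Benjamini-Hochberg adjustment, after a filter of 1 FPKM in 2 of the 4 libraries. Figures used matplotlib 3.10.9. The fit was checked on simulated data. Read depth is unknown, so the fit judged precision from the spread between repeats alone.

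A list member of the Schwann cells and one of the caspases are not reported here and were left out of the list counts. Members, gene lists and tests were chosen with earlier results of these data known. Named genes were, by rule, the 10 largest rises and falls without overlap at a mean of at least 5, genes the study names, the highest and most changed members of each of 30 lists, and the 10 highest genes. Others, among them further list members, were chosen after their values were seen. No source used here says that a repeat number marks a shared animal, and the deviations of same-numbered repeats correlated at -0.43 between the turns, so the numbers were not used as pairs. Alternatives changed the pseudocount, filter, scaling, libraries, variance model, block and threshold.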

Additional observations from a re-analysis of the deposited data

Results flagged for a closer look

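The mean of the 15 Schwann cell and myelin genes differed between the turns in opposite directions in the 2 genotypes, and 14 of the 15 genes did so singly, Sox10 being lower in the middle turn of both. The mean over the list of the difference on log2(scaled FPKM + 1), middle minus apical, was -0.948 in the 35delG homozygous cochlea and 1.28 in the wild-type cochlea (0.842 without wild-type middle 1, the library with central glial genes), and in each genotype every library of one turn lay on the same side of every library of the other for the list mean. The difference between the list means was not tested. Gene by gene, 0 of the 15 were called for it by limma, with a smallest adjusted p of 0.244. The comparison takes pieces of the same name as matched, which was not tested. Wild-type middle 1 lay 75.07 and 80.8 from the homozygous basal libraries, and 100.9 and 103.5 from the homozygous middle ones. For wild-type middle 2 these distances were 83.16 and 92.73, and 95.55 and 98.75. The wild-type basal list means (5.243 and 6.004) lay below the wild-type apical ones (6.05 and 6.052).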

How the results depend on the processing

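The count of 0 genes called between the turns stayed at 0 under every alternative run, leaving out any 1 library included (0 to 0), except without a filter, where 1 gene was called, Gm10503, a predicted gene at 2.26 and 1.86 in the apical libraries and 0 in the middle ones. Without a filter 30413 genes (84.5% of 36005) had an interval inside 2-fold, since most added genes are near 0, and that count ran from 8137 to 11463 when 1 library was left out. With a pseudocount of 0.1 or 0.01 it was 8928 (61.4%) or 8713 (59.9%). For the turn contrast between genotypes, the count ran from 0 to 1 when 1 library was left out: mt-Ts1 was called without wild-type basal replicate 1 and without replicate 2 (1 each). With the replicate block 0 genes were called (336 at an unadjusted p under 0.05), and with the crossed block, chosen after seeing the data, 0 (535). The absence of an adjusted p under 0.05 between the turns was less stable. The smallest limma adjusted p was 0.0195 without the trend, 0.0498 with library weights and 0.00152 without a filter, against 0.0733 in the main fit. The ratio of distances ran from 0.966 to 1.05.

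Some differences changed sign, among them those of Nefl and Snap25, which were not near 0. Quantile normalization gave Coch -0.11, Gjb6 -0.00494 and Myo15 -0.0267, and rescaling to an equal sum gave Myo15 -0.0111. Leaving out 1 library moved Gjb2 from -0.47 to 0.35, Gjb6 from -0.21 to 0.45, Kcne1 from -1.08 to 0.65, Kcnj10 from -0.40 to 0.37, Kcnq1 from -0.98 to 0.45, Myo15 from -0.42 to 0.52, Nefl from -2.45 to 0.52, Otof from -0.49 to 0.23, Snap25 from -2.45 to 0.64 and Tmc1 from -0.61 to 0.10. The cause was not tested. Rescaling to an equal sum moved the median of all genes to -0.07 and the share of genes lower in the middle turn from 51.4% to 63.7%. With FPKM as deposited, an unadjusted p under 0.05 was reached by 163 genes toward the apical side and 272 toward the middle side, against 177 and 221. The count at an unadjusted p under 0.05 was 1096 without a filter and 191 with a filter of 5 FPKM for the turn contrast, and 2405 without a filter, 766 with a filter of 5 FPKM and 2002 with library weights for the contrast between genotypes.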
